A study of Mus musculus with 4 samples.

Results

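Neutrophils were examined among the cells of DLA tumours as the barcodes in which S100a8, S100a9 and Retnlg together held at least 2% of the UMIs (unique molecular identifiers, each counting 1 captured transcript). S100a8 and S100a9 encode the calcium-binding subunits of calprotectin, and Retnlg encodes a resistin-like secreted protein of the granulocytes. A barcode was kept if it had 200 or more detected genes and no more than 10% mitochondrial UMIs, and a neutrophil barcode further held at most 2 UMIs of the keratin genes Krt8 and Krt18, less than 50% hemoglobin UMIs and fewer than 2 UMIs of the B cell genes Cd79a, Cd79b and Ms4a1. This rule selected 54 of 4404 kept barcodes, out of 5332 listed barcodes. The members were thus chosen by the measured levels of the 3 gate genes, so these levels are described and not tested, and the contrast of the neutrophil barcodes with all other barcodes carries no test.

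The tumours came from Swiss albino mice that received DLA (Dalton's lymphoma ascites) cells in the peritoneal cavity, and they were digested with collagenase, depleted of red cells by lysis and profiled by droplet-based 3′ RNA sequencing. Control 1 and Control 2 carried the same tumour and are labelled untreated, although the study's supplement describes a vehicle, so whether vehicle was given is not settled. Treated 1 and Treated 2 came from tumour-bearing mice that received SP11, an HSP90 inhibitor, orally at 30 mg/kg for 17 days. The mice's age is not given in the sources used here. The study's methods speak of independent sets of samples and its supplement of biological replicates, and the number of mice behind a sample is not given in the sources used here.

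Neutrophils are short-lived granulocytes that mature in the bone marrow, where primary granule proteins are made first, secondary (specific) granule proteins next and gelatinase granule proteins last. Mature cells in the blood carry receptors for G-CSF, chemokines and complement fragments, and transcripts of granule proteins decline as they mature. In inflamed tissue and tumours they can take up the transcription of interleukin-1β, chemokines and NF-κB targets, which is commonly called activation.

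The kept barcodes held 9574906 to 13024964 UMIs per sample, of which the neutrophil barcodes held 2287 (Control 1), 7399 (Treated 1) and 33051 (Treated 2). The median neutrophil barcode held 582 UMIs in Control 1, 916.5 UMIs in Treated 1 and 672.5 UMIs in Treated 2, against medians of 8794 to 19651 UMIs in the barcodes with more than 2 keratin UMIs, which made up 3275 of the 4404 kept barcodes. The neutrophil barcodes thus lay close to the lower end of what was listed, since the smallest barcode of each library held 500 to 516 UMIs. All 4 neutrophil barcodes of Control 1 and 17 of the 42 of Treated 2 held fewer than 600 UMIs, whereas none of the 8 of Treated 1 did. Barcodes with fewer UMIs were not listed, and fewer neutrophils and less RNA per neutrophil cannot be told apart at this depth. The barcode sequences of 12 of the 54 members were also listed by another library, but none of the 12 was a neutrophil barcode there.

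The question of the design was whether the tumours of SP11-treated mice held another share of these cells. Neutrophil barcodes were most frequent in Treated 2, with 42 of 1091 kept barcodes or 3.85% (exact Clopper-Pearson 95% interval 2.79 to 5.17%). Control 1 held 4 of 916, or 0.437% (0.119 to 1.11%), and Treated 1 held 8 of 1831, again 0.437% (0.189 to 0.859%). Control 2 held 0 of 566, with an exact interval up to 0.650%. Intervals and limits of this kind cover counting error only. Treated 2 stood apart from the 3 other samples, and Treated 1 lay level with Control 1.

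Averaged over samples, the share came to 0.218% ± 0.309 (SD, n = 2) for Control and to 2.14% ± 2.41 (SD, n = 2) for Treated. The difference of 1.92 percentage points gave p = 0.333 in a two-sided exact permutation test over samples, the smallest p that 2 against 2 samples allow. Without Treated 2 the difference was 0.219 points. The shares also moved with the limit on genes, since at least 500 detected genes left no neutrophil barcode in either control, 5 in Treated 1 and 10 in Treated 2.

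**Figure D1:**
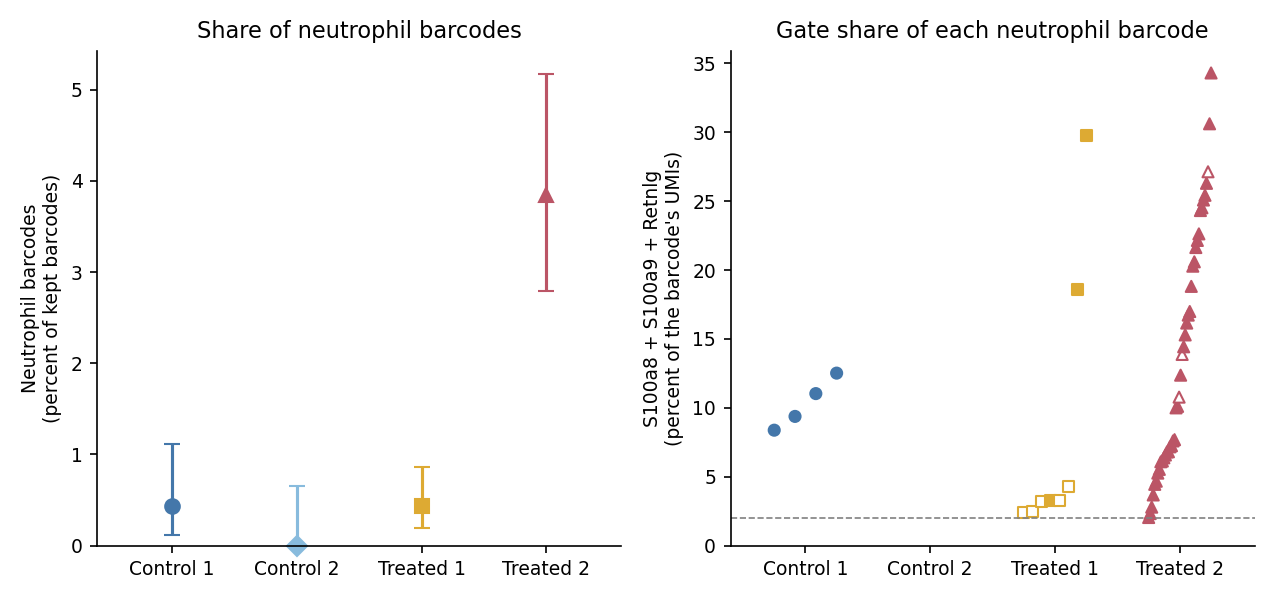
Left, neutrophil barcodes as a percentage of the kept barcodes of each sample, with exact 95% intervals. Right, the share of the UMIs of each neutrophil barcode on S100a8, S100a9 and Retnlg, ordered within a sample, with the limit of 2% dashed and open symbols for barcodes with 2 or more UMIs of monocyte and macrophage markers. Treated 2 is highest on the left at 3.85%, Control 2 has no symbol on the right because it has no neutrophil barcode, and 5 of the 8 symbols of Treated 1 are open.

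The limit of 2% cut the samples differently. In Control 1 the neutrophil barcodes ran from 8.38 to 12.5% gate share, with a median of 10.2%, and the highest barcode left outside that met the other limits had 0.0870%. In Treated 2 they ran from 2.04 to 34.3%, with a median of 11.6%, and 1.54% was the highest value outside. In Treated 1 the median was 3.29%, the lowest was 2.43% and the highest value outside was 1.40%. Gate shares were therefore separated by a wide gap in Control 1 and ran on through the limit in both treated samples.

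Other barcodes passed the gate share and failed another limit. In Control 2 there were 2, with gate shares of 5.27 and 21.1% and with 4 and 3 keratin UMIs, respectively, so the absence of members in Control 2 rested on the keratin limit. In Treated 1, 5 failed on hemoglobin and 5 on B cell genes. In Treated 2, 2 failed on keratin, 2 on hemoglobin and 1 on B cell genes. With at most 10 keratin UMIs, a limit chosen after seeing these barcodes, the samples held 4, 2, 8 and 44 neutrophil barcodes, and the difference between the groups was 1.84 points.

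The label was checked against the 4 neutrophil markers that the gate did not use and against markers of other cells. All 4 markers, Lcn2, Hdc, Mmp9 and Asprv1, had at least 1 UMI in the neutrophil barcodes of each of the 3 samples that had any. Hdc in Control 1 and Asprv1 in Treated 1 rested on 1 UMI. Markers of dendritic cells, of platelets and of eosinophils, basophils and mast cells were at 0 UMIs in all 3 samples. The 7 keratin and epithelial markers gave 4, 5 and 17 UMIs, B cell markers 0, 1 and 3 UMIs and T and NK cell markers 0, 0 and 12 UMIs in Control 1, Treated 1 and Treated 2. The 12 T and NK cell UMIs of Treated 2 lay in 2 barcodes, at up to 0.439% of a barcode's UMIs. Over the sample they were 363 per 1000000 UMIs, above the 53.1 in its monocyte and macrophage barcodes and the 103 in its B cell barcodes. The keratin and B cell counts say little, since the rule itself capped Krt8, Krt18, Cd79a, Cd79b and Ms4a1.

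Monocyte and macrophage markers were a further exception, and they lay mostly in Treated 1. The 16 markers summed to 0 UMIs in Control 1, 50 in Treated 1 and 12 in Treated 2, of which Fn1, the gene of fibronectin, gave 0, 22 and 1. In Treated 1, 5 of the 8 neutrophil barcodes held 2 or more such UMIs, from 5 to 15 each, against 3 of 42 in Treated 2 and 0 of 4 in Control 1. These 5 had gate shares of 2.43 to 4.31%, so that the neutrophil signal was thin where the macrophage signal was present. Many levels of Treated 1 moved by over 1.5 times without these 5, and their values over the remaining 3 barcodes (2173 UMIs) are given below where the order of samples turned. Leaving out these barcodes, also chosen after seeing the data, kept 4, 0, 3 and 39 neutrophil barcodes and a difference in share of 1.65 points (exact permutation p = 0.667).

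Hemoglobin transcripts also differed. The erythroid markers summed to 2 UMIs in Control 1, 55 in Treated 1 and 1520 in Treated 2, where 4 barcodes with more than 10% hemoglobin UMIs stood apart from the next at 2.21%. Hbb-bs, a β-globin gene, was at 437 CPM in Control 1, 3919 in Treated 1 and 23993 in Treated 2 (CPM, the UMIs of a gene scaled to a total of 1000000 UMIs over the neutrophil barcodes of a sample). Monocyte and macrophage barcodes were those outside the other classes with at least 2 UMIs of Csf1r, C1qa, C1qb, Fn1, Ms4a7 and Adgre1 together. In them, Hbb-bs was at 68.1, 38816 and 29061 CPM in these samples. In the treated samples Hbb-bs was thus higher in the monocyte and macrophage barcodes than in the neutrophil barcodes.

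The genes of neutrophil identity were carried to a large part by these few barcodes. In the treated samples the neutrophil barcodes held 40450 UMIs and the other kept barcodes 25984336, yet 97.0% of all Ngp UMIs, 61.4% of Lcn2, 55.3% of Retnlg, 47.7% of S100a9 and 43.8% of S100a8 UMIs lay in neutrophil barcodes. Ngp encodes neutrophilic granule protein and Lcn2 the siderophore-binding lipocalin 2. Among genes with at least 50 UMIs the next by ratio to the other barcodes were Wfdc21, Hdc (histidine decarboxylase, which makes histamine), Csf3r (the G-CSF receptor), Lrg1, Ifitm1, Hp (haptoglobin), Acod1 (which makes itaconate), Mxd1, C5ar1 (the receptor of complement C5a) and Il1b (interleukin-1β). For the last of these, Il1b, 18.4% of the UMIs lay in neutrophil barcodes. Ratios to the other barcodes are descriptions, since the members were selected on genes that go along with these.

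Among genes with the most UMIs over all neutrophil barcodes, S100a9 held 5.46% and S100a8 4.68% of them, followed by Gm42418, Retnlg, Malat1, Hbb-bs, Hba-a1, Actb, Cxcl2 and S100a6. S100a9 lies on the reverse strand at chr3:90692632-90695721 and S100a8 on the forward strand at chr3:90668978-90670035 of GRCm38 (mm10), the build of the submitters' notes. Retnlg lies at chr16:48872621-48874496 on the forward strand. Per library, S100a9 had 135 (Control 1), 175 (Treated 1) and 2025 (Treated 2) UMIs, which are 59029, 23652 and 61269 CPM. S100a8 had 84, 254 and 1661 UMIs, or 36729, 34329 and 50256 CPM. Retnlg had 18, 108 and 783 UMIs, or 7871, 14597 and 23691 CPM. Treated 1 was lowest in S100a9 and in S100a8, and Control 1 was lowest in Retnlg. Without the barcodes with monocyte and macrophage markers, Treated 1 was instead highest in S100a8, at 82375 CPM against 48230 in Treated 2, and in Retnlg, at 42338 against 22550, and its S100a9 level was 47860.

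The 4 remaining marker genes were sparse. Lcn2 had 10, 19 and 51 UMIs in Control 1, Treated 1 and Treated 2, or 4373, 2568 and 1543 CPM. Hdc had 1, 9 and 62 UMIs, or 437, 1216 and 1876 CPM. Mmp9, the gelatinase B of the gelatinase granules, had 2, 5 and 30 UMIs, and Asprv1, a retroviral-like protease gene expressed in neutrophils, had 2, 1 and 38. Lcn2 lay highest and Hdc lowest in the control sample, but both rested on 10 UMIs or fewer there, and neither passed the test given below. Without the barcodes with monocyte and macrophage markers, Lcn2 was at 7363 CPM in Treated 1, above Control 1.

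Maturity was read from granule genes in the order in which they are made. Primary granule and precursor genes were nearly absent. Mpo (myeloperoxidase), Elane (neutrophil elastase), Prtn3, Ctsg, Ms4a3, Gfi1 and Cebpe together gave no UMI in either Control 1 or Treated 1 and 2 UMIs in Treated 2, 60.5 CPM (Poisson 95% interval 7.33 to 219). The limit for a count of 0, set at 3 UMIs, was 1312 CPM in Control 1 and 405 CPM in Treated 1. The Poisson 95% interval of a count of 0 reached 1613 and 499 CPM there, so a low level was not detectable in these samples.

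Secondary granule genes were present and unevenly spread over the barcodes. As a list of 9 they held 11, 59 and 215 UMIs, or 4810, 7974 and 6505 CPM in Control 1, Treated 1 and Treated 2. Without the barcodes with monocyte and macrophage markers Treated 1 was at 23930 CPM. Most UMIs of the list were Pglyrp1, a peptidoglycan recognition protein gene, with 1, 11 and 90 UMIs, and Lcn2. Ngp had 0, 22 and 42 UMIs, Camp (cathelicidin) 0, 5 and 17, and Ltf (lactoferrin) 0, 2 and 8. The 6 gelatinase granule genes summed to 3, 14 and 53 UMIs, or 1312, 1892 and 1604 CPM. All 22 Ngp UMIs of Treated 1, and its 5 Camp UMIs, came from 1 barcode, which had the highest gate share of that sample at 29.7%. In Treated 2, 4 of 42 barcodes held Ngp, and 2 held 26 and 13 UMIs. Over all 54 neutrophil barcodes, 3 held 10 or more Ngp UMIs and 5 held any, so the Ngp level of a sample was set by a few barcodes.

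Genes of mature neutrophils were widely detected. Of 13 such genes, 10 (Control 1), 12 (Treated 1) and 13 (Treated 2) had a UMI, and their sum was 33, 153 and 1234 UMIs or 14429, 20678 and 37336 CPM. This list holds Retnlg, a gate gene, which gave 18, 108 and 783 of these UMIs. Without the barcodes with monocyte and macrophage markers Treated 1 was at 49701 CPM, above Treated 2. Its 3 remaining barcodes held 7, 28 and 57 Retnlg UMIs. Retnlg thus gave most of the list in each sample, and it chose the members. The order of the samples is therefore a description, and the list without Retnlg was not compared. Csf3r had 0, 4 and 53 UMIs, Cxcr2, the receptor of CXCL1 and CXCL2, had 1, 2 and 20, and Il1r2, the decoy receptor of interleukin-1, 1, 3 and 42. Cxcr4, the chemokine receptor of young and aged neutrophils that retains cells in the marrow, had 0 UMIs in all 3 samples. In Treated 2 the limit of 3 UMIs is 90.8 CPM. The 13 granulocyte transcription factor genes, among them Spi1 (PU.1) with 1, 4 and 26 UMIs, summed to 5, 18 and 121 UMIs. Cell cycle genes, 13 in number, gave 0, 5 and 11 UMIs.

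The gene levels by sample plot sets these genes beside those of activation. Cxcl2, the gene of a chemokine that attracts neutrophils, was found in 3 of 4 barcodes of Control 1, 8 of 8 of Treated 1 and 39 of 42 of Treated 2, with 13, 36 and 361 UMIs or 5684, 4866 and 10922 CPM. Treated 1 lay below Control 1 and Treated 2 above, so the groups overlapped over all neutrophil barcodes. Without the barcodes with monocyte and macrophage markers, Treated 1 held 4, 8 and 1 Cxcl2 UMIs in 3 barcodes (2173 UMIs). Its level then lay slightly above Control 1, so the overlap rested on the barcodes with those markers. Il1b, on the reverse strand at chr2:129364570-129371139, had 0 UMIs in Control 1. There the limit of 3 UMIs is 1312 CPM, and the Poisson 95% interval reaches 1613 CPM. It had 14 UMIs in Treated 1, or 1892 CPM (Poisson 95% interval 1034 to 3175), and 213 in Treated 2, or 6445 CPM (5608 to 7371). Both treated samples lay above these 2 values for Control 1, which the interval of Treated 1 includes. The 2 barcodes of Control 2 that only the keratin limit left out held 4 Il1b UMIs in 3152, or 1269 CPM.

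**Figure D2:**
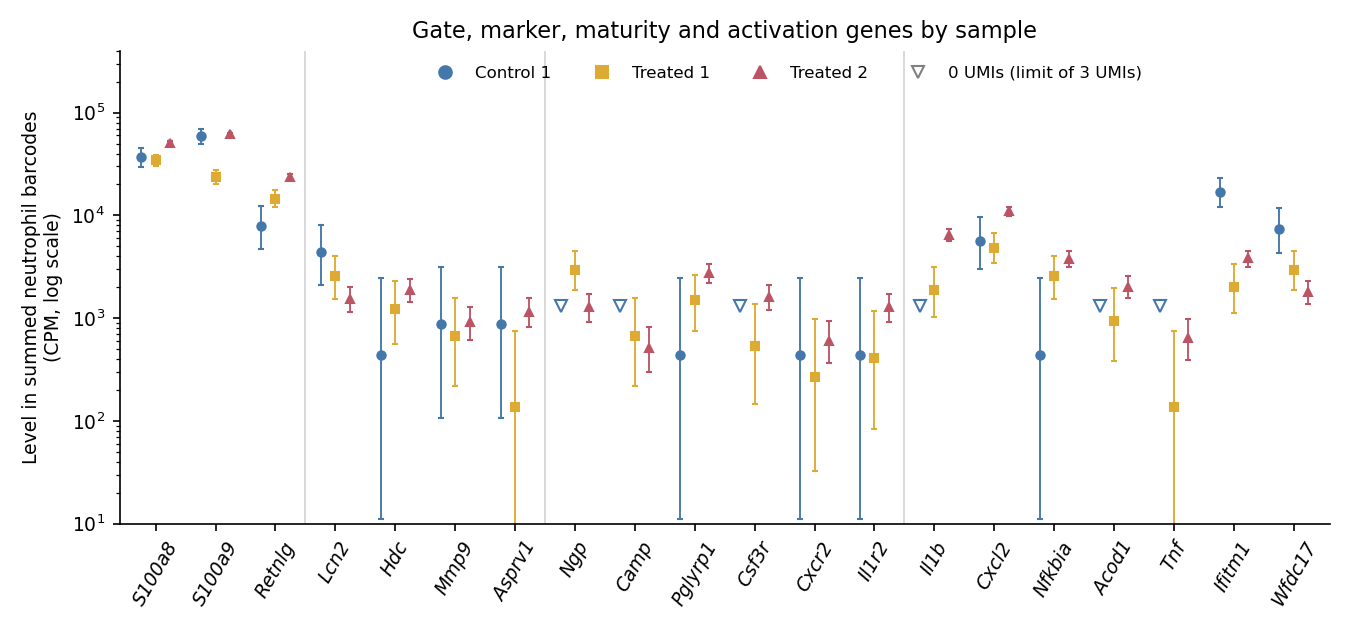
CPM of 20 genes in the summed neutrophil barcodes of Control 1 (circles), Treated 1 (squares) and Treated 2 (triangles) on a log axis, with Poisson 95% intervals that cover counting error only and lower ends cut off at 10 CPM. Vertical lines divide gate genes, other markers, maturity genes and activation genes, and open triangles stand at the limit of 3 UMIs for genes with 0 UMIs. Control 1 has 0 UMIs of Ngp, Camp, Csf3r, Il1b, Acod1 and Tnf, and its Ifitm1 level, 17053 CPM, lies above both treated samples.

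Shares of barcodes with a UMI were compared at a common depth by thinning each barcode to 500 UMIs. In Treated 2, 32 of 42 neutrophil barcodes, or 76.2% (60.5 to 87.9%), then kept an Il1b UMI, against 26.8% of 123 monocyte and macrophage barcodes, 3.14% of 159 B cell barcodes and 1.18% of 591 keratin barcodes. The unthinned shares were 81.0, 51.2, 9.43 and 13.5%, at median depths of 672.5, 1875, 1686 and 19651 UMIs. In Treated 1, 3 of 8 neutrophil barcodes kept one and in Control 1 0 of 4, with intervals of 8.52 to 75.5% and 0 to 60.2% that overlap each other. For Cxcl2 the thinned shares were 88.1% in Treated 2, 8 of 8 in Treated 1 and 3 of 4 in Control 1. The part of free RNA in these shares was not tested.

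The list of 19 NF-κB and early response genes held 17, 63 and 446 UMIs, or 7433, 8515 and 13494 CPM, in Control 1, Treated 1 and Treated 2. Nfkbia, the gene of the NF-κB inhibitor IκBα, had 1, 19 and 125 UMIs, or 437, 2568 and 3782 CPM. Junb, a subunit of the transcription factor AP-1, had 2, 7 and 65 UMIs, and Ier3 had 6, 9 and 39, which is 2624, 1216 and 1180 CPM and thus the opposite order. Tnfaip2 had 4, 1 and 11 UMIs, or 1749, 135 and 333 CPM. Without the barcodes with monocyte and macrophage markers the list was at 6903 CPM in Treated 1, below Control 1, and of its 4 tested genes 2 had an estimate above 0 and none was called. Tnf had 0, 1 and 21 UMIs, Acod1 0, 7 and 67, and Tnfaip3, a feedback inhibitor of NF-κB signalling, 0, 1 and 29.

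Other secreted factors were mostly absent. Of 20 cytokine and chemokine genes, 4 were detected in Control 1, 11 in Treated 1 and 12 in Treated 2, at depths that differ more than 10-fold between Control 1 and Treated 2. Il6, Il10, Il1a, Vegfa, Cxcl1 and Cxcl10 had 0 UMIs in both treated samples. Ccl6, a chemokine gene of myeloid cells, had 2, 27 and 38 UMIs, but only 6 of the 27 of Treated 1 lay outside the barcodes with monocyte and macrophage markers. Il1rn, the interleukin-1 receptor antagonist, had 1, 0 and 10 UMIs.

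Receptor, adhesion and oxidase genes were detected at low counts. Of 19 receptors of chemotaxis and sensing, 8, 15 and 17 were detected, with 17, 56 and 404 UMIs. Fcer1g, the shared signalling chain of Fc receptors, had 7, 21 and 98 UMIs, C5ar1 had 2, 3 and 57, and Clec4e, the receptor Mincle, had 1, 4 and 55. The 9 adhesion genes summed to 1, 15 and 87 UMIs. The 7 genes of the NADPH oxidase, which makes the oxidative burst, summed to 7, 29 and 147 UMIs or 3061, 3919 and 4448 CPM, beside 3267, 4399 and 4085 CPM in the monocyte and macrophage barcodes of the same samples. In Treated 1 they were at 2301 CPM without the barcodes with monocyte and macrophage markers, and the adhesion genes at 460 CPM in place of 2027.

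The summed level of a few lists lay higher in Control 1, the only control sample with neutrophil barcodes, than in both treated samples. Interferon-stimulated genes, 27 in the list, held 72, 116 and 422 UMIs, or 31482, 15678 and 12768 CPM in Control 1, Treated 1 and Treated 2. Ifitm1, which encodes a transmembrane protein that restricts virus entry, had 39, 15 and 126 of these UMIs, or 17053, 2027 and 3812 CPM, and it was detected in 4 of 4 barcodes of Control 1, 5 of 8 of Treated 1 and 31 of 42 of Treated 2. The excess of Control 1 lay largely, but not only, in Ifitm1. Ifitm2 had 12, 37 and 133 UMIs, or 5247, 5001 and 4024 CPM, and was thus also highest in Control 1. Ifitm3 had 9, 34 and 57 UMIs, or 3935, 4595 and 1725 CPM. The fitted log2 fold changes of Ifitm2 and Ifitm3, which rest on another scaling than CPM, were above 0 (0.43 and 0.25, not called). Isg15 had 3, 2 and 11 UMIs, and Ifit3 had 0 UMIs in Treated 1 and 2 in Treated 2. In the 2 barcodes of Control 2 left out by the keratin limit, Ifitm1 had 19 UMIs or 6028 CPM, which lay above both treated samples and below Control 1. In the same 2 barcodes Ifitm2 was at 2855 CPM, below both treated samples, and Ifitm3 at 1904 CPM, between them.

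Glycolysis genes summed to 50, 86 and 306 UMIs, or 21863, 11623 and 9258 CPM. Gapdh alone had 19, 33 and 102 UMIs, or 8308, 4460 and 3086 CPM. In the 2 barcodes of Control 2 left out by the keratin limit, Gapdh was at 4442 CPM, level with Treated 1. Wfdc17, of the tumour neutrophil list below, was at 7931 CPM in those 2 barcodes. In the monocyte and macrophage barcodes of the same samples the glycolysis list was at 15415, 9622 and 9654 CPM, also highest in Control 1. Genes linked to tumour neutrophils held 22, 50 and 126 UMIs, or 9620, 6758 and 3812 CPM, and Wfdc17, an activated macrophage and neutrophil transcript with a whey acidic protein domain, gave 17, 22 and 59 of them, or 7433, 2973 and 1785 CPM. Nos2, Vegfa and Siglecf had 0 UMIs in all 3 samples, and the 4 Arg1 UMIs (arginase) were all in barcodes of Treated 1 with monocyte and macrophage markers. Without these barcodes the tumour neutrophil list of Treated 1 was at 4142 CPM. In the monocyte and macrophage barcodes of Control 1, Treated 1 and Treated 2 this list was at 9936, 5909 and 6158 CPM, again highest in Control 1.

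The ribosomal protein genes also moved with the groups, an observation chosen after values were seen. Together 83 of them took 18.2% of the UMIs of neutrophil barcodes in Control 1, 11.4% of those in Treated 1 and 7.03% of those in Treated 2, and 20.6% in the 2 barcodes of Control 2 left out by the keratin limit. The fall was not particular to neutrophil barcodes. Monocyte and macrophage barcodes had 25.1% in Control 1 and 27.7% in Control 2, against 16.1% in Treated 1 and 16.3% in Treated 2. B cell barcodes had 29.6% in Treated 1 and 28.5% in Treated 2, with 37.3% in the 1 B cell barcode of Control 1. Keratin barcodes had 29.3 to 32.2% in all 4 samples. Krt8 and Krt18 themselves took 3, 3 and 9 UMIs in the neutrophil barcodes, or 1312, 405 and 272 CPM, with the number per barcode capped by the rule. The part of RNA from keratin cells was not tested.

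SP11 targets HSP90, so the chaperone genes were described as well. The 20 HSP90 and co-chaperone genes held 12, 46 and 75 UMIs, or 5247, 6217 and 2269 CPM in Control 1, Treated 1 and Treated 2. Hsp90ab1, the constitutive HSP90 gene, had 4, 12 and 19 UMIs, or 1749, 1622 and 575 CPM, and the inducible Hsp90aa1 had 1, 8 and 11. Hspa1a, the inducible HSP70 gene of the heat shock response, had 0 UMIs in both treated samples. The treated samples lay on both sides of Control 1 for the summed list.

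Among survival genes, Mcl1, a short-lived inhibitor of apoptosis on which neutrophils depend, had 5, 10 and 72 UMIs, or 2186, 1352 and 2178 CPM. The list of 19 held 8, 19 and 119 UMIs, or 3498, 2568 and 3601 CPM, with intervals that overlap. The 3 Bcl2a1 genes are near-identical copies between which reads cannot be assigned with certainty, and of these Bcl2a1b had 1, 3 and 18 UMIs.

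The difference between groups was tested on the summed counts of the neutrophil barcodes with edgeR's quasi-likelihood test. Control 2 had no neutrophil barcode and was dropped from the fit, so 1 control sample stood against 2 treated samples with 1 residual degree of freedom, and the lone control was assumed to vary like the treated samples. Of 147 genes tested besides the 3 gate genes, 0 were called higher and 0 lower at an adjusted p of 0.05, which are 0% and 0% of them. At an unadjusted p under 0.05 there were 8 higher and 2 lower genes, and DESeq2 called 0 in either direction, with 6 higher and 0 lower unadjusted. The smallest adjusted p in edgeR was 0.483.

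No gene of maturity or activation was called among those tested. For Nfkbia the log2 fold change of treated over control was 3.54 (SE 1.06, edgeR adjusted p = 0.483), for Pglyrp1 2.98 (SE 1.14, edgeR adjusted p = 0.483) and for Hdc 2.52 (SE 1.03, edgeR adjusted p = 0.483). Cxcl2 had 1.20 (SE 1.12, edgeR adjusted p = 0.661) and Lcn2 had -0.48 (SE 0.61, edgeR adjusted p = 0.764). Ifitm1 had -1.81 (SE 0.85, edgeR adjusted p = 0.483) and Wfdc17 had -1.03 (SE 0.62, edgeR adjusted p = 0.557). Of the 25 gene lists, 14 had a tested gene and none of these a called one, and 11 had no gene with enough counts to be tested, among them the primary and gelatinase granule, adhesion, transcription factor and cell cycle lists. Over all 147 genes 76 had an estimate above 0, with a median log2 fold change of 0.04. The 4 tested glycolysis genes all had estimates below 0, with a median of -0.74.

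With the keratin limit of 10 UMIs all 4 samples entered the fit and 75 genes were tested, of which again 0 were called higher and 0 lower, with 9 higher and 11 lower at an unadjusted p under 0.05. Nfkbia had 1 UMI in each control sample and 19 and 126 in Treated 1 and Treated 2, a log2 fold change of 3.80 (SE 0.60, edgeR adjusted p = 0.0910). Both control samples lay below both treated samples for this gene. Such separation was not particular to Nfkbia among the genes tested. Gm42418 and Fxyd5 were also lower in both controls than in both treated samples, and Rps7 and Rpl6 were higher in both controls. In CPM, all genes at an unadjusted p under 0.05 in this edgeR test separated the groups in this way, except Fcer1g. Further genes above that p did so too, among them Rpl23 and Rpl26. Separation was thus common among the 75 genes, and its share over all of them was not counted. At the stricter gate of 5% the same test called 4 of 41 genes higher, namely Il1b, Ngp, Hbb-bs and Hba-a1, with only 2 barcodes in Treated 1.

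The neutrophil barcodes of Treated 2 differed from the other cells of the same tumour in more than the gate genes. Csf3r was at 1604 CPM in them, against 41.8 CPM in the monocyte and macrophage barcodes and 2.39 CPM in the keratin barcodes. Il1b was at 6445, 592 and 15.6 CPM, and Cxcl2 at 10922, 3508 and 39.8 CPM in these classes. Conversely Fn1 was at 30.3 CPM in neutrophil barcodes and 3572 in monocyte and macrophage barcodes, where it is one of the defining genes. Ccl6 was lower in the neutrophil barcodes, at 1150 against 4332 CPM. These are values of 1 library and describe its barcodes.

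**Figure D3:**
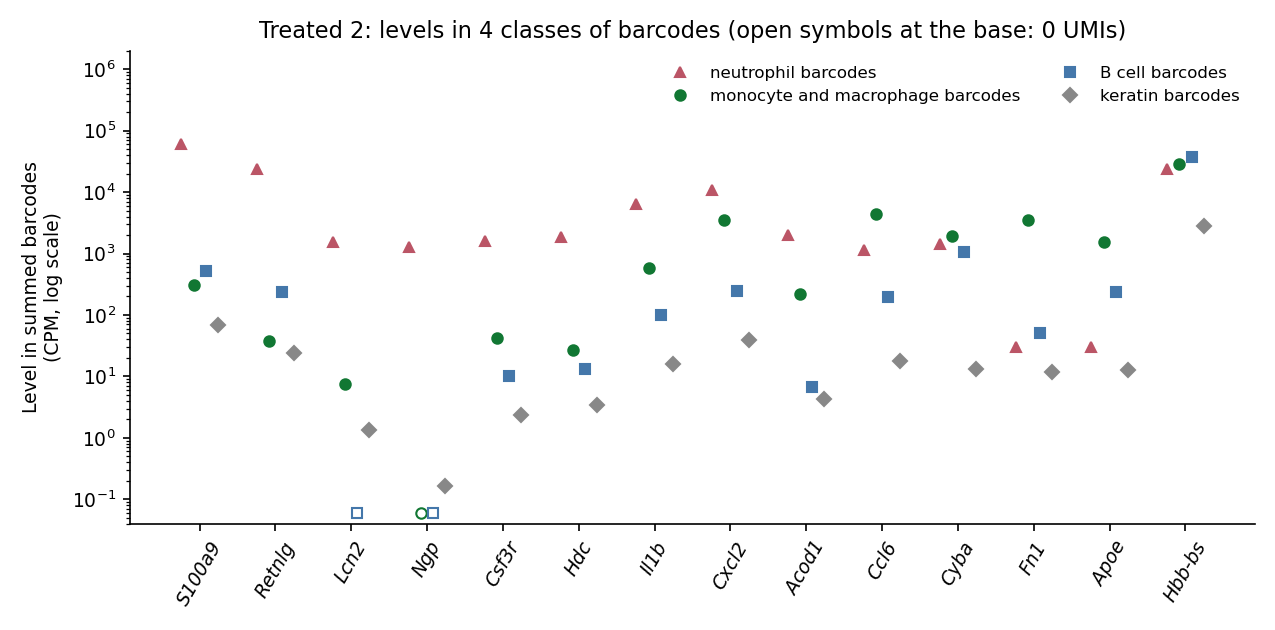
CPM on a log axis in the summed neutrophil (triangles), monocyte and macrophage (circles), B cell (squares) and keratin (diamonds) barcodes of Treated 2, with open symbols at the base for 0 UMIs. Csf3r, Hdc, Il1b and Acod1 are highest in the neutrophil barcodes, Cyba is at a similar level in 3 classes, and Fn1, Apoe and Ccl6 are highest in the monocyte and macrophage barcodes.

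Within Treated 2 the 42 neutrophil barcodes differed among themselves. Retnlg ran from 0 to 99 UMIs per barcode with a median of 4.5, and 14 barcodes had none. Il1b ran from 0 to 29 UMIs with a median of 4, and 34 barcodes had at least 1. The genes were seldom high together. Of 16 barcodes with 10 or more Retnlg UMIs, 2 had 5 or more Il1b UMIs, whereas of 26 barcodes with fewer than 10 Retnlg UMIs, 16 did. Spearman's rho of Il1b with Retnlg, each per UMIs of the barcode outside the 3 gate genes, was -0.50 over the 42 barcodes, which share 1 library and hold 500 to 2050 UMIs each. Because Retnlg is a gate gene this is a description.

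**Figure D4:**
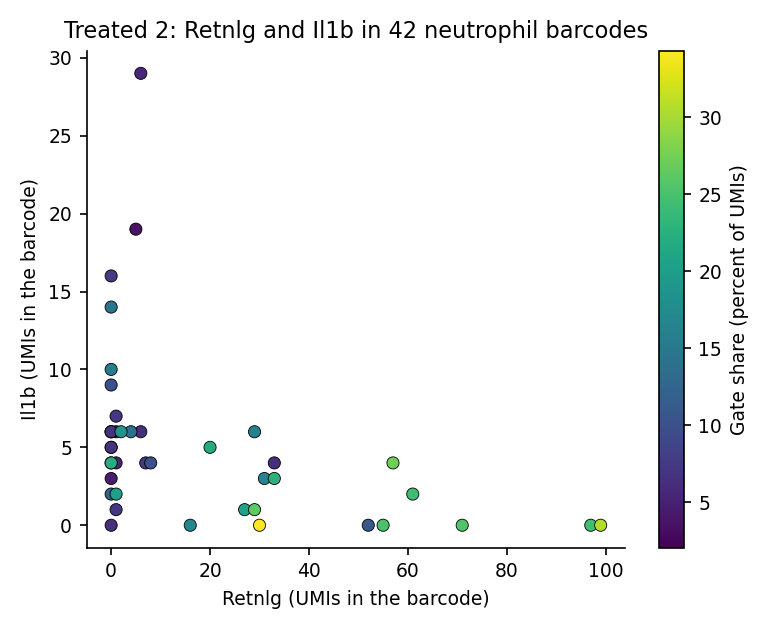
UMIs of Il1b against UMIs of Retnlg in each of the 42 neutrophil barcodes of Treated 2, coloured by gate share in percent. Barcodes with many Retnlg UMIs have few of Il1b, and the barcodes with 10 or more Il1b UMIs, 5 in number, all have fewer than 10 Retnlg UMIs.

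The same division was seen for other genes when the barcodes were ordered by gate share into 3 sets of 14, from 2.04 to 6.81%, 7.17 to 16.99% and 18.8 to 34.3%. Levels were taken per 10000 UMIs outside the 3 gate genes, so that the gate genes did not dilute the rest. Median UMIs were 634.5, 684 and 658.5, median detected genes 394.5, 393 and 348, and the UMIs outside the gate genes summed to 11254, 9615 and 7713, so the depth behind the levels was lowest in the highest set. Il1b was at 91.5 in the lowest, 85.3 in the middle and 36.3 in the highest set. Nfkbia ran 59.5, 36.4 and 29.8, and Tnf ran 7.11, 12.5 and 1.30. Cxcl2 was level, at 127, 130 and 121.

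Granule genes ran the other way. Lcn2 was at 0, 9.36 and 54.5 per 10000 UMIs in the lowest, middle and highest set, Pglyrp1 at 15.1, 25.0 and 63.5, Wfdc21 at 0.889, 12.5 and 36.3, and Lrg1 at 6.22, 11.4 and 32.4. Mmp8, the neutrophil collagenase, was at 0, 3.12 and 10.4, and the 42 Ngp UMIs were all in the highest set. Other genes were mixed, with Csf3r at 18.7, 15.6 and 22.0, Hdc at 20.4, 22.9 and 22.0 and Fcer1g at 25.8, 33.3 and 48.0. Since the sets were cut by the gate share that chose the members, these orders are descriptions, and the Ngp and Camp values of the highest set came from 4 and 2 barcodes. The lowest and middle set each held 2 of the 4 barcodes with over 10% hemoglobin UMIs. The part of hemoglobin in this order was not tested.

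**Figure D5:**
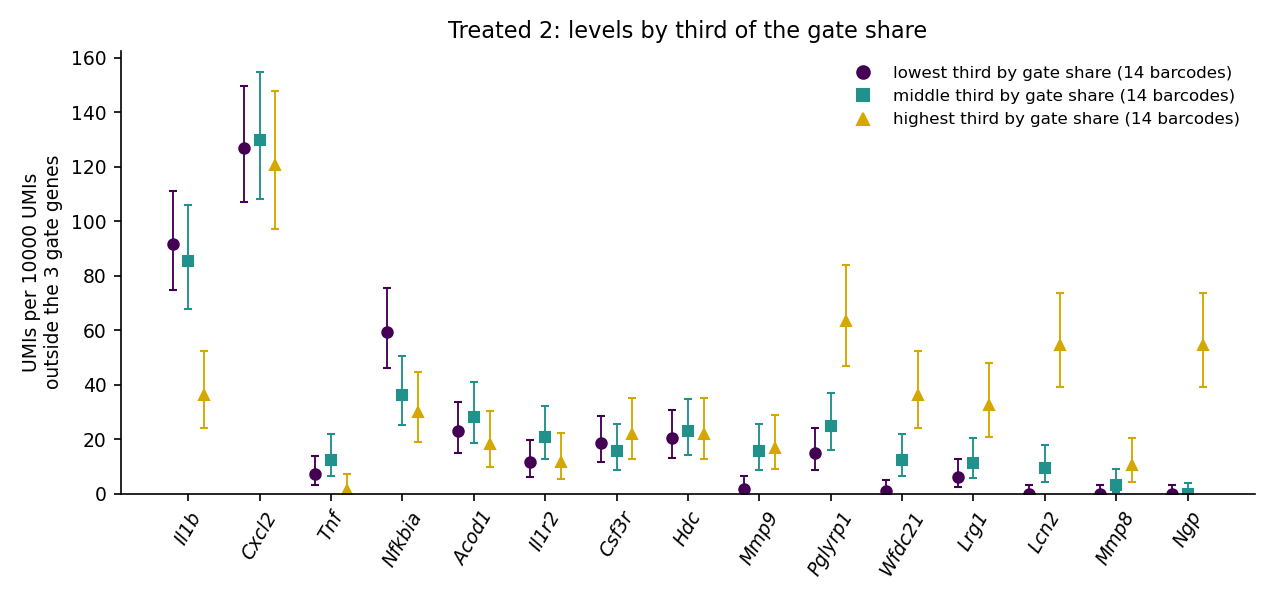
UMIs per 10000 UMIs outside the gate genes for 15 genes in the 14 neutrophil barcodes of Treated 2 with the lowest (circles), middle (squares) and highest (triangles) gate share, with Poisson 95% intervals that cover counting error only. Il1b and Nfkbia are lowest, and Pglyrp1, Wfdc21, Lrg1, Lcn2, Mmp8 and Ngp highest, in the set with the highest gate share, while Cxcl2, Csf3r and Hdc are level.

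Treated 1 could be read in the same way only for single barcodes. Its 2 barcodes with gate shares of 18.6 and 29.7% held 28 and 57 Retnlg UMIs, 6 and 10 Lcn2 UMIs, 1 and 0 Il1b UMIs and no UMI of the monocyte and macrophage markers. The 14 Il1b UMIs of this sample lay in 4 barcodes, and 1 barcode with a gate share of 3.28%, no monocyte and macrophage marker and 8.79% mitochondrial UMIs held 6 of them. In Control 1 each of the 4 barcodes held Retnlg, from 2 to 7 UMIs, 3 held Lcn2 and none held Il1b.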

How the data were processed

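The 4 tumour samples were deposited as matrices of UMI counts (genes by barcodes) that the authors made with Cell Ranger 7.1.0 and did not normalize. The submitters' notes name mm10 and the study's methods hg38, and the genes are mouse genes. The 54 neutrophil barcodes and the 25 gene lists (307 genes) were chosen with earlier results of these data known. Neutrophil barcodes were selected by the limits given in the text. Monocyte and macrophage barcodes held at least 2 UMIs of Csf1r, C1qa, C1qb, Fn1, Ms4a7 and Adgre1 together and were in no other class. Counts were summed per sample, scaled to CPM, and tested by quasi-likelihood in edgeR 4.0.16 under R 4.3.3 (TMM, filterByExpr), with p-values adjusted over all genes tested (Benjamini-Hochberg, 0.05); the planned fit of 4 samples became one of 3, because Control 2 had no neutrophil barcode. DESeq2 1.42.0 was an alternative. On counts simulated for this comparison the edgeR step made 0 false calls and called 14 of 101 tested genes changed by a log2 fold of 3 and 1 of 80 changed by 2 (178 and 173 genes tested). Shares were compared by an exact permutation test with Clopper-Pearson 95% intervals (scipy 1.17.1), and 3 counts were the limit for a count of 0. Doublets were called with Scrublet in scanpy 1.11.5, which marked 5.13% (Control 1), 8.13% (Control 2), 0.928% (Treated 1) and 1.47% (Treated 2) of kept barcodes, among them 1 neutrophil barcode, in Control 1; they were kept, and its automatic threshold changed with the random seed. Coordinates come from the GENCODE annotation of GRCm38. Genes named are the gate and marker genes, members of the lists, the 10 genes with most UMIs and the 15 with the largest ratio to other barcodes; ribosomal protein genes were added after values were seen. Other settings changed the limits on genes, mitochondrial UMIs, gate share, hemoglobin, keratin and monocyte markers, the normalization, the filter and the samples.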

Additional observations from a re-analysis of the deposited data

Results flagged for a closer look

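Among barcodes below the limit of 200 detected genes, 2 barcodes of Treated 1 passed the gate share of 2%, against 0 in both control samples and 0 in Treated 2. This is a signal outside the barcodes that were analysed. Treated 1 had 433 barcodes below that limit, with a median of 89.0% hemoglobin UMIs, and Treated 2 had 380 with a median of 90.1%, against 12 in Control 1 and 1 in Control 2.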

How the results depend on the processing

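The difference in share kept its direction in 13 of 13 alternatives, from 0.219 to 3.63 points, which is also the range when 1 sample was left out; the lowest is without Treated 2. Its exact permutation p was 0.333 or 0.667, and 2 against 2 samples cannot reach 0.05. At the gate of 5% Treated 1 was at 0.109%, below Control 1 at 0.437%. Without the barcodes carrying monocyte and macrophage markers Treated 1 was at 0.164%, also below Control 1 at 0.437%. In both settings the direction rested on Treated 2. For genes in the summed counts, the gate of 5% gave 4 higher, and leaving out Control 2, which has no neutrophil barcode, left the count at 0. Leaving out 1 sample at the keratin limit of 10 UMIs gave 1 to 7 higher and 0 lower genes, with 6 without Control 1, 1 without Control 2, 7 without Treated 1 and 6 without Treated 2. With the replicate number as a block, possible only at that keratin limit, 7 genes were higher and 5 lower; the numbers are not known to pair samples, and the deviations of same-numbered samples correlated at -0.19 over 75 genes. A crossed replicate block gave 3 higher and 1 lower. These counts rest on 1 residual degree of freedom each, and the cause of the shifts was not tested. The minimum of 500 genes, the replicate block and leaving out Control 1, Treated 1 or Treated 2 could not be fitted under the main limits.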
